A study of Rattus norvegicus with 12 samples.

Results

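Corticosteroid receptors and genes that glucocorticoids induce were examined in RNA from the central nucleus of the amygdala (CeA), a brain region that takes part in stress and in alcohol dependence. The 10 genes were *Nr3c1*, *Nr3c2*, *Hsd11b1*, *Fkbp5*, *Tsc22d3*, *Sgk1*, *Zbtb16*, *Nfkbia*, *Dusp1* and *Errfi1*. All 10 were among the 37209 genes listed and among the 20944 genes with enough counts to be tested. They were selected on their known function at a time when differences between the groups in these same rats were already known, so those differences are given below as a description, with no test result for a single gene. Calls among the 10 are given only as counts beside the share of all genes called.

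The rats were adult male wild-type Sprague Dawley animals of 14 to 16 weeks. The 6 chronic intermittent ethanol (CIE) rats received daily periods of ethanol vapor for several weeks and were sampled immediately after the last exposure, while still intoxicated. The 6 Control rats were kept in air, and both groups were anesthetized with isoflurane and decapitated. Each library was made from poly-A RNA of tissue punches from 1 rat. The groups followed the treatment label because the titles of the air-exposed rats also carry the letters CIE. All rats were housed in shared cages and no cage was given. Since the numbers 1 to 6 all belong to CIE and 7 to 12 to Control, CIE and the order of the numbers cannot be told apart.

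Corticosterone, the main glucocorticoid of the rat, enters brain cells and binds 2 related receptors, the mineralocorticoid receptor and the glucocorticoid receptor. The bound receptor leaves its chaperone complex, moves to the nucleus and switches on genes that bear glucocorticoid response elements. Among these genes, *Fkbp5* acts back on the pathway: its product lowers the affinity of the receptor for its hormone. The products of *Nfkbia* and *Dusp1* restrain inflammatory signaling. Plasma corticosterone was not part of the data analysed here.

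Total counts were 61978486 to 78441691 in CIE rats and 39082548 to 95647601 in Control rats. Markers of CeA neurons were present in both groups, with 8 of 8 matched markers tested. Their summed levels were 1704 to 2962 CPM, counts scaled to a common library size, in CIE and 1935 to 3407 CPM in Control rats. Of the 8, 7 had a negative log2 fold change, with a median of -0.15. In edgeR 2 were lower at a nominal p below 0.05, as were 903 of all 20944 genes, and none passed 5% false discovery rate. The sum was highest in CIE rat 2 and Control rat 10, the rats with the most striatal marker RNA. How much of it came from neighboring tissue was not tested. Some libraries stood apart in markers of neighboring tissue. The 7 markers of striatal projection neurons summed to 3182 CPM in CIE rat 2 and 3532 CPM in Control rat 10, against medians of 602 and 470 CPM in their groups. The 7 markers of cortical glutamatergic neurons were highest in CIE rats 1, 2 and 4, at 347 to 484 CPM, and in Control rat 10, at 284 CPM. The medians of this sum were 230 CPM in CIE and 99.0 CPM in Control rats. The 8 myelinating oligodendrocyte markers all had a negative log2 fold change, with a median of -0.57. None was past 5% false discovery rate (FDR) in edgeR, 7 were lower at a nominal p below 0.05, and 3 were past 5% FDR in DESeq2 and in limma-voom. Of all genes, DESeq2 called 286 of 29389 and limma-voom 234 of 20944. The sums of the 8 myelin markers were 5453 to 13224 CPM in CIE and 8399 to 15784 CPM in Control rats. Of the 8 endothelial markers, 1 fell at 5% FDR, and 5 were lower and 1 higher at a nominal p below 0.05. Their log2 fold change was negative in 7 of 8, with a median of -0.27, and their sums were 255 to 330 CPM in CIE and 277 to 349 CPM in Control rats. No astrocyte or microglia marker was past 5% FDR in edgeR. Of 8 astrocyte markers 2 were lower and 1 higher at a nominal p below 0.05, and of 6 microglia markers 1 was lower. The medians were -0.04 and -0.10. Of the 6 choroid plexus markers, *Ttr* and *Kcnj13* were at 0 in every rat, while *Kl* had 91 to 330 counts, *Clic6* 4 to 112, *Folr1* 0 to 102 and *Otx2* 0 to 37. The sums of the 6 were 1.97 to 5.04 CPM in CIE and 1.65 to 6.60 CPM in Control rats. The part of these markers in the results below was not tested. In tissue of this kind, fewer cells of a type and less RNA per cell cannot be told apart.

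Promoters were read from RefSeq (GRCr8) for the 7 genes that matched, in 12 windows of 250 bases before to 50 bases after a transcription start. Letters of 5 motifs were searched on both strands: the glucocorticoid half-site AGAACA, its palindrome (AGAACA and TGTTCT with any 3 bases between them), the cAMP response element TGACGTCA, the E-box CACGTG and an NF-kB motif (GGGA and TTCC with any 2 bases between them). The palindrome contains the half-site. The promoters of *Dusp1*, *Nfkbia* and *Fkbp5* are shown because they include windows with and without a match. All are written 5′ to 3′ on the strand of the gene, and capitals mark the matched letters. They lie at chr10:17184603-17184902 (plus strand), chr6:78597023-78597322 (minus strand) and chr20:6543506-6543805 (minus strand).
Dusp1: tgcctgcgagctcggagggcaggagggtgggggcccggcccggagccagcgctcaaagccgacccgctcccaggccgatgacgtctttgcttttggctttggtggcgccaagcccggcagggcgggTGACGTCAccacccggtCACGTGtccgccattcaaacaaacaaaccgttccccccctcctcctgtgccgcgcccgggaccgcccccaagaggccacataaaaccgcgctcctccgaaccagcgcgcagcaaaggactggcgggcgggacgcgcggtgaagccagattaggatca
Nfkbia: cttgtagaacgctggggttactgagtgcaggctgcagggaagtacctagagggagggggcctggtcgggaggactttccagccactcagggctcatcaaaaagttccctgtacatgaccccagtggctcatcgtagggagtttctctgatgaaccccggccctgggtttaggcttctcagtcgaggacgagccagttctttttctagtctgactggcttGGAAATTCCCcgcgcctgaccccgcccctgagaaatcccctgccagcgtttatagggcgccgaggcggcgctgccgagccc
Fkbp5: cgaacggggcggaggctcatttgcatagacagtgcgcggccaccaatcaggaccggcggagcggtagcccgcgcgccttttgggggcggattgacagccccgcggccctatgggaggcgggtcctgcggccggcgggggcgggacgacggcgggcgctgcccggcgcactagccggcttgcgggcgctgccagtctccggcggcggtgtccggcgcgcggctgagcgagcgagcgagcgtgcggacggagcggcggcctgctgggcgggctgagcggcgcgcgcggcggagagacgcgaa
The *Dusp1* window held the cAMP response element at -124 and the E-box at -107 from the start. The *Nfkbia* window held the NF-kB motif at -31 on the opposite strand. The letters printed there, on the strand of the gene, are GGAAATTCCC. The half-site was in 0 of the 12 windows and in 20.7% of 33469 windows in all, and the palindrome was in 0 of 12 and 0.0149%. The other motifs were each in 1 of the 12 windows, against 1.83% of all windows for the cAMP response element, 6.42% for the E-box and 1.3% for the NF-kB motif. No match says only that these letters are not in this window.

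Of the 10 genes, 3 were past 5% FDR in edgeR's quasi-likelihood test, all higher in CIE rats. Of all 20944 genes tested, 0.105% were called higher and 0.363% were called in either direction. At a nominal p below 0.05, 7 of the 10 were higher and none was lower, where 4% of all genes were higher and 8.31% passed in either direction. With the myelin marker score (mean log2 level of the 8 markers) as covariate, 5 were higher and 1 was lower at that p. The share of all genes at that p was not counted in this fit. In it 3 of the 10 were past 5% FDR, as were 26 of 20944 genes. In 2 of the 10, *Tsc22d3* and *Zbtb16*, every CIE rat was above every Control rat, as in 0.339% of all genes. The median log2 fold change of CIE over Control was 0.47 for the 10 genes and 0.00 for all genes. Since the genes were chosen with this contrast known, nothing is read from these counts. With CIE rat 2 and Control rat 10 left out, 3 of the 10 were past 5% FDR, as were 38 of 21064 genes tested. With CIE rats 1, 2 and 4 and Control rat 10 left out, none of the 10 was past 5% FDR in edgeR. Of 21691 genes tested in that fit, 15 were past 5% FDR. In it 7 of the 10 were higher at a nominal p below 0.05, but the share of all genes at that p was not counted. The median log2 fold change of the 10 was 0.54.

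**Figure D1:**
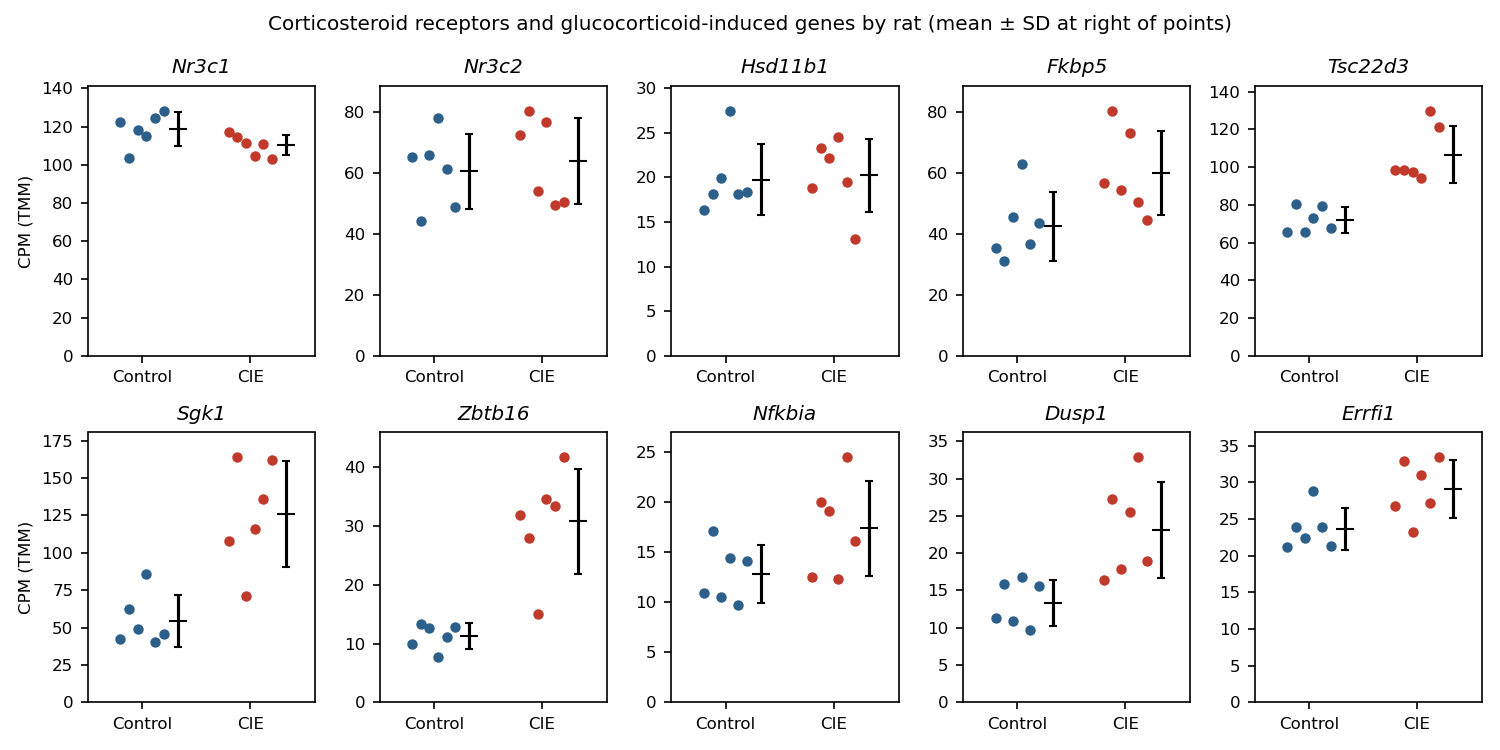
Levels of the 10 genes in each rat, in CPM with TMM normalization on an axis that starts at 0. Each point is 1 rat, with Control in blue and CIE in red, and the bar beside the points is the mean ± SD (n = 6). The groups are apart for Tsc22d3 and Zbtb16 and overlap for the other 8 genes.

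*Nr3c1*, the glucocorticoid receptor, had a lowest, median and highest level of 103, 111 and 117 CPM in CIE rats and of 104, 120 and 128 CPM in Control rats. The groups overlapped, with every CIE rat below the highest Control rat. The means were 110 ± 5.46 CPM and 119 ± 8.74 CPM (SD, n = 6 each), a log2 fold change of -0.11 (SE 0.06). *Nr3c2*, the mineralocorticoid receptor, was at 49.6, 63.3 and 80.6 CPM in CIE and at 44.4, 63.3 and 78.1 CPM in Control rats. The 2 ranges nearly coincided, and the log2 fold change was 0.08 (SE 0.16). The receptors varied among rats to different degrees, which was not tested. The coefficient of variation was 4.95% in CIE and 7.36% in Control rats for *Nr3c1*, and 22.1% and 20.3% for *Nr3c2*.

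The count ratio of *Nr3c1* to *Nr3c2* compares both receptors within a library, although differences in transcript length remain in it. It was 1.36, 1.81 and 2.23 (lowest, median, highest) in CIE rats and 1.47, 1.95 and 2.63 in Control rats. The ranges overlapped. On the log2 scale the ratio was 0.81 ± 0.30 in CIE and 0.99 ± 0.29 in Control rats, so the difference of -0.18 was smaller than the SD of either group. The difference was -0.26 without Control rat 10, -0.12 without CIE rat 2, and -0.10 without CIE rat 4 or Control rat 12.

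*Hsd11b1* encodes the enzyme that regenerates active corticosterone from its inactive form inside the cell. It was at 13.1, 20.8 and 24.5 CPM in CIE and at 16.3, 18.3 and 27.5 CPM in Control rats. The groups overlapped, and the highest value of all 12 was in Control rat 10. The means were 20.2 ± 4.13 CPM and 19.7 ± 3.96 CPM, a log2 fold change of 0.03 (SE 0.15), or 0.16 without Control rat 10.

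*Fkbp5* encodes the co-chaperone FKBP51, which is induced by the receptor and lowers its hormone affinity. Its level was 44.6, 55.7 and 80.5 CPM in CIE and 31.3, 40.04 and 63.1 CPM in Control rats. The groups overlapped: 2 CIE rats were above the highest Control rat, which was rat 10, and 4 Control rats were below the lowest CIE rat. The means were 59.97 ± 13.9 CPM and 42.6 ± 11.3 CPM, a fold of 1.41 and a log2 fold change of 0.49 (SE 0.18). The log2 fold change was 0.64 without Control rat 10, 0.39 without CIE rat 2 and 0.54 without both. With covariates for both the cortical and the striatal markers it was 0.31 (SE 0.08).

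*Tsc22d3* encodes GILZ, a leucine zipper protein that carries part of the anti-inflammatory action of glucocorticoids. It was at 94.2, 98.5 and 130 CPM in CIE and at 65.4, 70.4 and 80.4 CPM in Control rats. The groups did not overlap, and CIE rats 5 and 6 stood above the other CIE rats. The means were 107 ± 14.96 CPM and 71.9 ± 6.79 CPM, a fold of 1.48 and a log2 fold change of 0.57 (SE 0.09). Over the 12 fits that each left out 1 rat, the log2 fold change was 0.50 to 0.61.

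*Zbtb16* encodes PLZF, a zinc finger transcription factor. It was at 14.99, 32.7 and 41.7 CPM in CIE and at 7.75, 11.9 and 13.3 CPM in Control rats. Again the groups did not overlap, although CIE rat 3, the lowest, was close to the Control rats. The means were 30.8 ± 8.95 CPM and 11.3 ± 2.16 CPM, a fold of 2.73 and a log2 fold change of 1.45 (SE 0.20), the largest of the 10. Over the 12 fits that each left out 1 rat, the log2 fold change was 1.34 to 1.59.

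*Sgk1* encodes a kinase that acts on ion channels and transporters. It was at 71.0, 126 and 164 CPM in CIE and at 40.4, 47.4 and 86.0 CPM in Control rats. The groups overlapped through 1 rat on each side: CIE rat 3 lay below Control rat 10, and the other 5 CIE rats lay above all Control rats. The means were 126 ± 35.4 CPM and 54.3 ± 17.4 CPM, a fold of 2.32 and a log2 fold change of 1.22 (SE 0.22). The log2 fold change was 1.13 to 1.40 over the 12 fits that each left out 1 rat, lowest without CIE rat 2 and highest without Control rat 10. With the myelin marker score as a covariate it was 1.66.

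*Nfkbia* encodes IκBα, the inhibitor that holds NF-κB in the cytoplasm and whose promoter is shown above. It was at 12.3, 17.6 and 24.5 CPM in CIE and at 9.74, 12.5 and 17.2 CPM in Control rats. The groups overlapped, with 3 CIE rats above the highest Control rat. The means were 17.4 ± 4.75 CPM and 12.8 ± 2.89 CPM, a log2 fold change of 0.44 (SE 0.18). CIE rats 1 and 4 were close to the Control mean for this gene.

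*Dusp1* encodes a phosphatase that switches off MAP kinases. It was at 16.4, 22.2 and 32.9 CPM in CIE and at 9.69, 13.4 and 16.8 CPM in Control rats. Of the 6 CIE rats, 5 were above the highest Control rat, rat 10, and the groups did not overlap once CIE rat 2 and Control rat 10 were left out. The means were 23.1 ± 6.46 CPM and 13.4 ± 3.07 CPM, a fold of 1.73 and a log2 fold change of 0.79 (SE 0.19). Over the 12 fits that each left out 1 rat, the log2 fold change was 0.66 to 0.87.

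*Errfi1* encodes a feedback inhibitor of the epidermal growth factor receptor. It was at 23.3, 29.0 and 33.4 CPM in CIE and at 21.2, 23.2 and 28.8 CPM in Control rats. The groups overlapped, with 3 CIE rats above the highest Control rat. The means were 29.1 ± 4.003 CPM and 23.6 ± 2.83 CPM, a log2 fold change of 0.30 (SE 0.10).

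**Figure D2:**
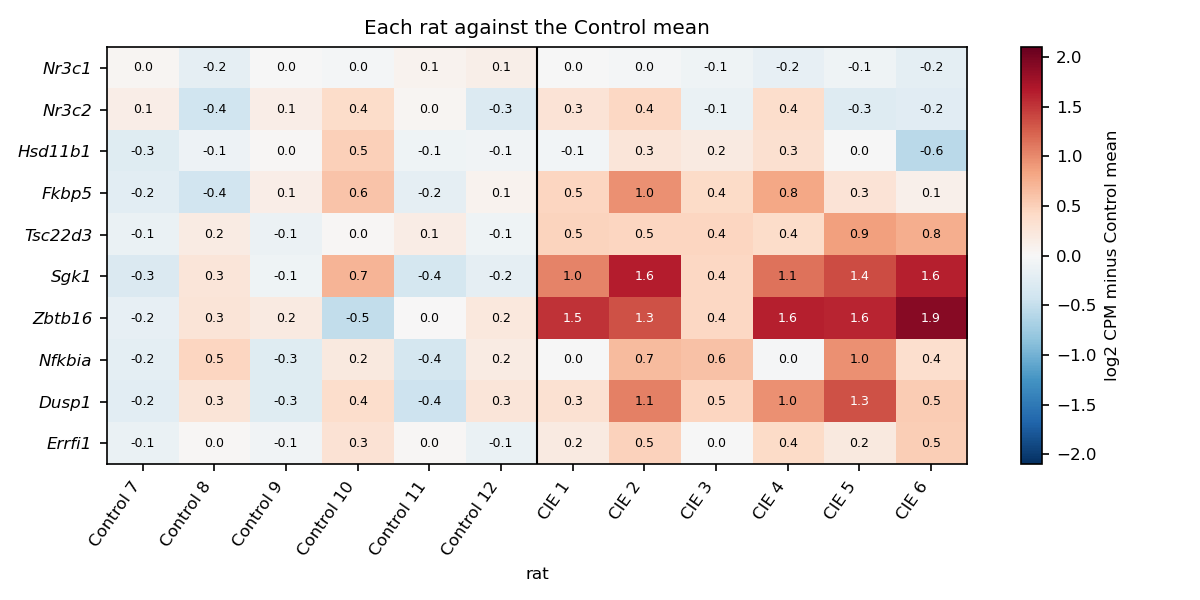
Log2 CPM of the 10 genes (rows) in each of the 12 rats (columns) minus the mean of the Control rats, in color and as printed values. Red cells run through the CIE rats for Tsc22d3, Sgk1 and Zbtb16, CIE rat 3 is the palest CIE rat for Sgk1 and Zbtb16, and Control rat 10 is red for Fkbp5 and Sgk1 and blue for Zbtb16.

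The rats were also compared across the 7 genes other than the receptors and *Hsd11b1*. The mean log2 difference from the Control mean over these 7 genes was 0.40 in CIE rat 3, 0.57 in CIE rat 1 and 0.76 to 0.94 in the other 4 CIE rats. In Control rats it was -0.20 to 0.24, with rat 10 highest and rat 8 next at 0.15. CIE rat 2 was above the highest Control rat for all 7 genes, and CIE rat 4 for 6 of 7. CIE rats 5 and 6 were so for 5 of 7, CIE rat 3 for 4 and CIE rat 1 for 3. Control rat 7 was below the lowest CIE rat for all 7 genes, and Control rat 10 for 2 of 7. The share of all genes was not counted for single rats, so nothing is read from these counts. In Control rat 10 the single genes spread from -0.52 for *Zbtb16* to 0.72 for *Sgk1*, so its high mean was not shared by all 7 genes.

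A further list held 26 genes that glucocorticoids are known to induce. It was written with earlier results of these rats known, among them differences in *Hif3a*, *Sult1a1* and *Per1*. Of the 26, 4 rose and 1 fell at 5% FDR. At a nominal p below 0.05, 13 were higher and 1 was lower, 24 of 26 had a positive log2 fold change, and the median was 0.47. Of all 20944 genes tested, 0.105% were called higher at 5% FDR and 0.363% in either direction. At a nominal p below 0.05, 4% of all genes were higher and 903 of the 20944 were lower. These shares also stand beside the counts of the lists below. *Hif3a*, a hypoxia-inducible factor subunit, was at 6.66 ± 1.53 CPM in CIE and 1.11 ± 0.492 CPM in Control rats, a log2 fold change of 2.57 (SE 0.30). *Sult1a1*, a phenol sulfotransferase, was at 7.97 ± 0.604 CPM and 4.88 ± 0.538 CPM, with a log2 fold change of 0.71 (SE 0.10). Both are among the 4 that rose and were known to differ beforehand, so the list's count is no independent evidence of direction and their own FDRs are not given. The lists below were also written with earlier results known. FDRs printed for single genes of any list are thus a description from the fit over all genes. The levels of *Hif3a* and *Sult1a1* did not overlap between the groups. Every CIE rat was above every Control rat in 0.339% of all genes.

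*Klf15*, a transcription factor of glucose and amino acid metabolism, was at 39.9 ± 4.97 CPM in CIE and 25.2 ± 2.56 CPM in Control rats, with a log2 fold change of 0.66 (SE 0.09, FDR = 0.0102). *Gpd1*, a glycerol phosphate dehydrogenase, was at 136 ± 44.4 CPM and 58.0 ± 19.0 CPM, with a log2 fold change of 1.23 (SE 0.24, FDR = 0.0469). The groups did not overlap for either gene, with CIE higher, as in 0.339% of all genes. *Gpd1* was past 5% FDR in 3 of the 12 fits that left out 1 rat, with a range of the FDR from 0.0272 to 0.135 and of the log2 fold change from 1.06 to 1.34. The gene that fell was *Cdkn1a*, an inhibitor of the cell cycle, at 5.02 ± 0.632 CPM in CIE and 8.20 ± 0.817 CPM in Control rats (log2 fold change -0.71, SE 0.11, FDR = 0.0116). All 6 CIE rats were below all 6 Control rats for this gene, as in 116 of all 20944 genes. With the myelin marker score as covariate the log2 fold change of *Cdkn1a* was -0.51 (FDR = 0.140), and with the cortical and striatal scores that of *Gpd1* was 1.13 (FDR = 0.128). With CIE rats 1, 2 and 4 and Control rat 10 left out, 2 of the 26 genes were past 5% FDR, as were 15 of 21691 genes tested. They were *Hif3a*, known to differ beforehand, and *Bcl6*, a transcriptional repressor named here after its values were seen. Neither is independent evidence.

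**Figure D3:**
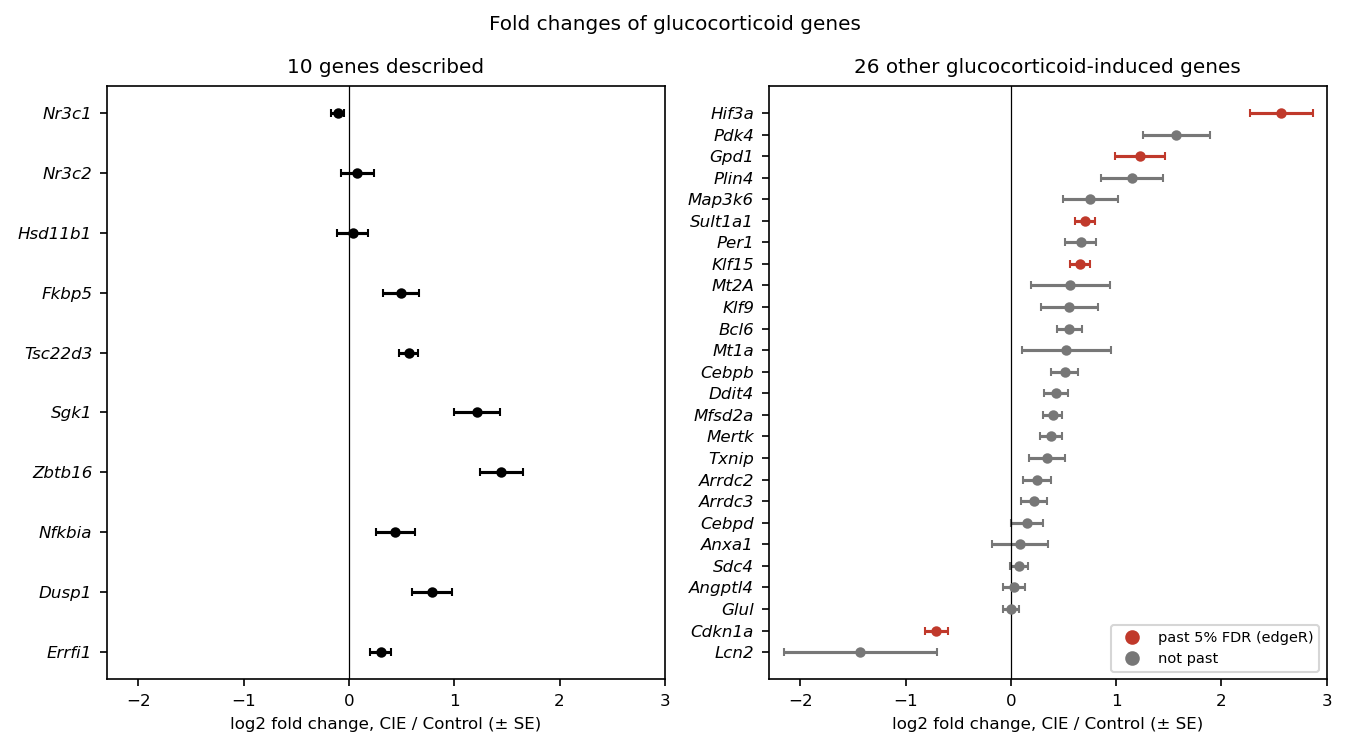
Log2 fold change of CIE over Control (points) ± SE (bars) for the 10 genes and for 26 other glucocorticoid-induced genes, with genes of the second set past 5% FDR in red. Most points of both panels lie right of 0, the receptors and Hsd11b1 lie near 0, and Lcn2 at -1.43, which is not past 5% FDR, and Cdkn1a at -0.71 lie left of 0.

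Genes that act on the receptor were examined next. None of the 10 receptor chaperones was past 5% FDR, 2 were lower at a nominal p below 0.05, 9 of 10 had a negative log2 fold change, and the median was -0.11. Among them *Hsp90aa1*, an HSP90 that holds the receptor ready for hormone, had a log2 fold change of -0.17 (FDR = 0.510), and *Stip1*, which links HSP70 to HSP90, one of -0.18 (FDR = 0.517). None of the 9 co-regulators was past 5% FDR, with 2 higher at a nominal p below 0.05 and a median of 0.09. The coactivators *Ncoa3* and *Ncoa1* had log2 fold changes of 0.34 (FDR = 0.416) and 0.19 (FDR = 0.515). DESeq2 and limma-voom also called none of the chaperones and none of the co-regulators at 5% FDR.

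Of 6 genes of steroid access and turnover, 5 were tested and none was past 5% FDR, with 3 past a nominal p of 0.05. *Srd5a1*, which reduces steroids, had a log2 fold change of -0.35 (FDR = 0.458), and *Hsd11b2*, which inactivates corticosterone, one of 0.79 (FDR = 0.566) on 9 to 48 counts per rat. None of the 4 related steroid receptors was past 5% FDR or a nominal p of 0.05, and the estrogen receptor *Esr2* (log2 fold change 0.27, FDR = 0.788) and the progesterone receptor *Pgr* (0.12, FDR = 0.818) had the smallest p. None of 11 paralogs of the 10 genes was past 5% FDR, 2 were lower at a nominal p below 0.05, and the median was -0.03. The paralogs with the smallest p were *Sgk2* (log2 fold change -0.79, FDR = 0.169) and *Nfkbib* (-0.25, FDR = 0.337), both with a sign opposite to that of *Sgk1* and *Nfkbia*. At 5% FDR, DESeq2 called 1 paralog and none of the genes of steroid access or related receptors, and limma-voom called none in these 3 lists. Of all genes, DESeq2 called 286 of 29389.

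Some of the 10 genes also respond to time of day or to neuronal activity, so 2 such lists were examined. Both were written with earlier results of these data known, so their FDRs are a description. Of 8 tested clock genes that peak together with *Dbp*, 1 rose at 5% FDR, 5 were higher at a nominal p below 0.05, all 8 had a positive log2 fold change, and the median was 0.39. The gene that rose was *Ciart*, a repressor of the clock, at 15.4 ± 4.24 CPM in CIE and 8.42 ± 1.33 CPM in Control rats (log2 fold change 0.87, SE 0.16, FDR = 0.0356). None of the 10 immediate early genes was past 5% FDR, 2 were higher at a nominal p below 0.05, and the median was 0.34. *Junb* (log2 fold change 0.60, FDR = 0.318) and *Fosb* (0.60, FDR = 0.577), both parts of the AP-1 transcription factor, had the smallest p. At 5% FDR, DESeq2 and limma-voom called 4 and 5 of the clock genes and none of the immediate early genes. Of all genes, DESeq2 called 286 of 29389 and limma-voom 234 of 20944. With CIE rats 1, 2 and 4 and Control rat 10 left out, none of the clock genes, *Ciart* included, was past 5% FDR in edgeR. The same held with the myelin marker score as covariate. In each of these fits 5 clock genes were higher at a nominal p below 0.05, and the share of all genes at that p was not counted.

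**Figure D4:**
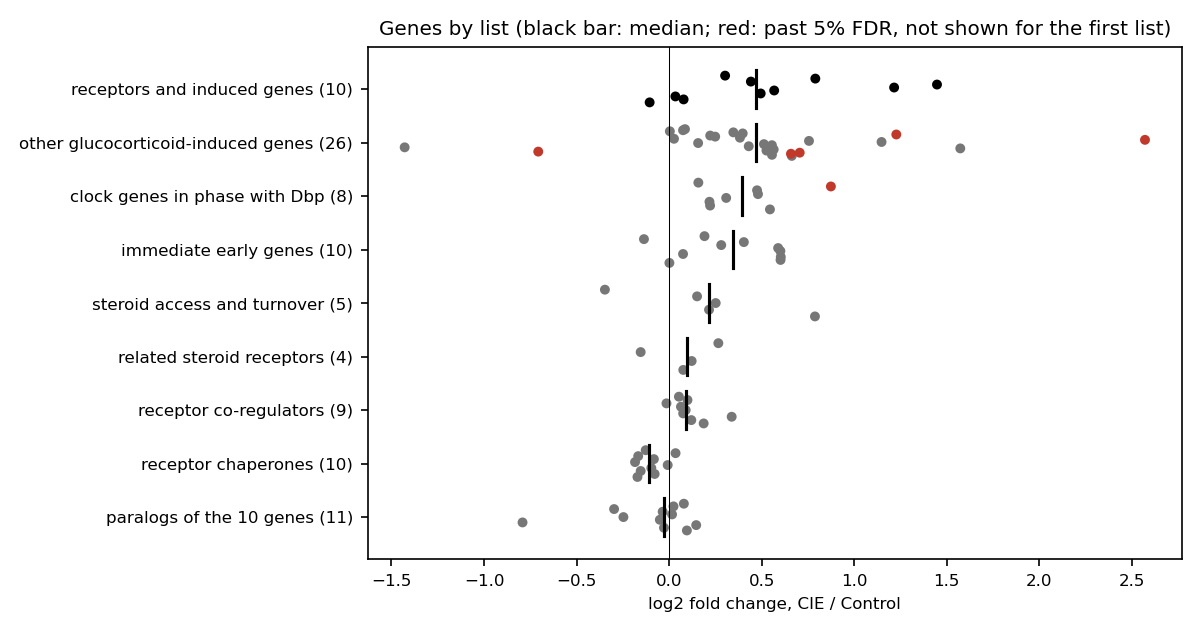
Log2 fold change of CIE over Control for each gene of 9 lists (points, with genes past 5% FDR in red except in the first list, which is drawn in black) and the median of each list (black bar). The medians are 0.47 for the 10 genes and for the 26 other glucocorticoid-induced genes, 0.39 for clock genes, and between -0.11 and 0.34 for the other lists.

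To see which of the 10 genes varied together among rats of the same treatment, the group means were removed and the 45 pairs were correlated over the 12 rats, with p from 100000 permutations within the groups. The rats share no library, but the values share the normalization. The median Pearson r was 0.18, and 2 of the 45 pairs were past an adjusted p of 0.05. *Hsd11b1* and *Fkbp5* had r = 0.84 (permutation p = 0.00079, adjusted p = 0.0346) and Spearman rho = 0.87 (permutation p = 0.00021, adjusted p = 0.00945). The r was 0.81 within CIE and 0.89 within Control rats, and 0.75 without Control rat 10 and CIE rat 6, the rats farthest out. *Sgk1* and *Errfi1* had r = 0.87 (permutation p = 0.00154, adjusted p = 0.0346) and rho = 0.85 (permutation p = 0.00108, adjusted p = 0.0243). The r was 0.89 within CIE and 0.85 within Control rats, and 0.70 without Control rat 10 and CIE rat 3. For *Nr3c2* and *Fkbp5* the 2 measures fell on different sides of the threshold, with r = 0.79 (permutation p = 0.00555, adjusted p = 0.0832) and rho = 0.85 (permutation p = 0.0018, adjusted p = 0.027). The r of this pair was 0.73 without Control rat 8 and CIE rat 5.

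The same was done for the 10 genes against the mean log2 level of 4 marker lists (cortical, striatal, myelin and endothelial), which gave 40 pairs, 2 of them past an adjusted p of 0.05 by Pearson r and 2 by Spearman rho. *Nr3c2* and the striatal score had r = 0.85 (permutation p = 9e-05, adjusted p = 0.0036) and rho = 0.90 (permutation p = 0.00026, adjusted p = 0.0104), with r = 0.82 without Control rat 8 and CIE rat 5. *Fkbp5* and the striatal score had r = 0.90 (permutation p = 0.00098, adjusted p = 0.0196) and rho = 0.76 (permutation p = 0.0117, adjusted p = 0.0936), with r = 0.73 without Control rat 10 and CIE rat 2. Within the groups the r of *Fkbp5* was 0.95 in CIE and 0.87 in Control rats. *Hsd11b1* and the striatal score had r = 0.74 (permutation p = 0.00588, adjusted p = 0.0655) and rho = 0.68 (permutation p = 0.018, adjusted p = 0.103), with r = 0.68 without Control rat 10 and CIE rat 6. *Errfi1* and the endothelial score had r = 0.79 (permutation p = 0.00655, adjusted p = 0.0655) and rho = 0.86 (permutation p = 0.00205, adjusted p = 0.041), with r = 0.73 without Control rat 10 and CIE rat 3. Among rats of the same treatment, those with more striatal marker RNA thus had more *Nr3c2* RNA by both measures, and more *Fkbp5* RNA by Pearson r after adjustment.

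**Figure D5:**
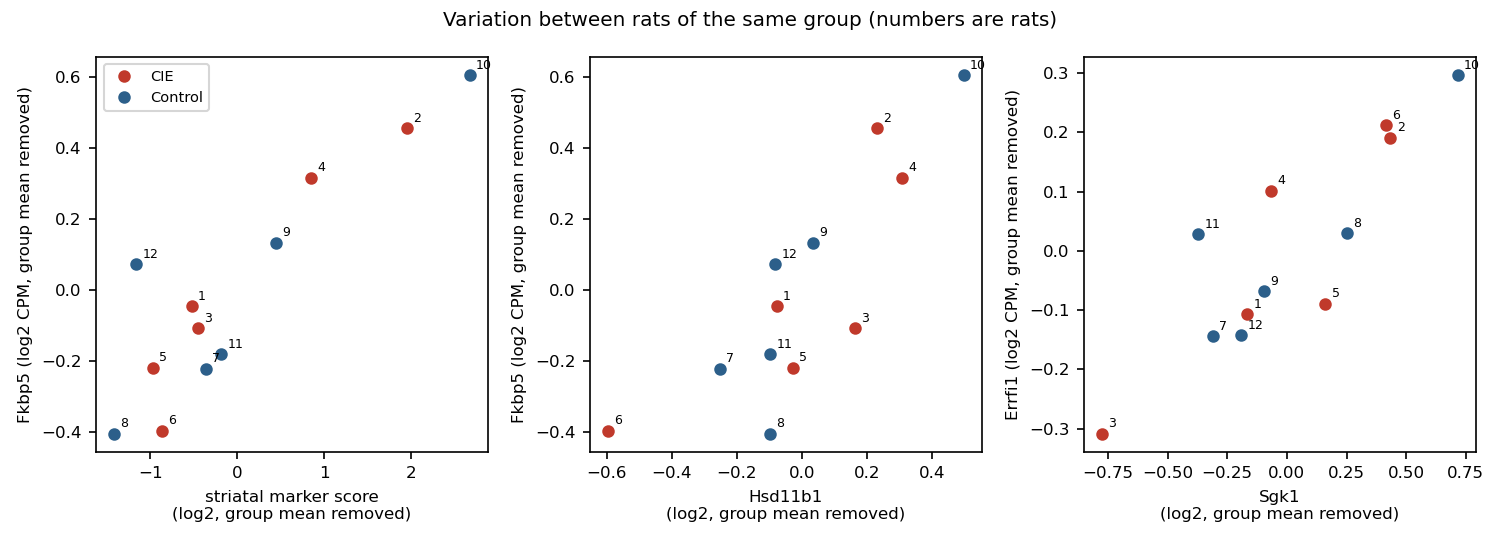
Log2 levels with the group means removed, 1 numbered point per rat, Control in blue and CIE in red: Fkbp5 against the striatal marker score (r = 0.90), Fkbp5 against Hsd11b1 (r = 0.84) and Errfi1 against Sgk1 (r = 0.87). Control rat 10 is at the upper right of all 3 panels, and CIE rat 3 is at the lower left of the third.

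The genes whose levels followed *Fkbp5* most closely among rats of the same treatment were sought among 16881 genes with a mean of at least 1 CPM. Over the 12 rats, *Ddo* (D-aspartate oxidase) and *Rbfox3* (the neuronal marker NeuN) had r = 0.98, and *Rab40b*, *Fbxo34* and *Ankrd45* had r = 0.97. These 5 are the most alike of many genes, so their r is a description with no test. Their own log2 fold changes of CIE over Control were 0.33, 0.07, 0.27, 0.16 and 0.24 in this order, each below the 0.49 of *Fkbp5*. All 5 were highest in CIE rat 2 among CIE rats and in Control rat 10 among Control rats, the rats with the highest striatal marker sums.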

How the data were processed

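CeA RNA of 6 CIE and 6 Control rats was sequenced as poly-A libraries (RNA integrity numbers above 8.6, per the labels). Raw counts per gene, which the authors made with HTSeq after BWA alignment of read pairs to Rnor_6.0, were deposited. Annotation, strand and overlap settings are not given in the sources used here. Differences between CIE and Control were tested with the quasi-likelihood test of edgeR 4.0.16 (R 4.3.3) after TMM normalization and filterByExpr, which left 20944 of 37209 genes, with Benjamini-Hochberg FDR over all of them. CPM used TMM library sizes, and log2 CPM a prior count of 2. DESeq2 1.42.0 (the authors used version 1.26) and limma-voom with sample quality weights (limma 3.58.1) were alternatives. These weights let the rats count unequally, and limma-voom stands for this weighted fit throughout. The test was run on simulated counts first. The 10 genes and all lists were chosen with earlier results of these data known. Genes named are the 10, those past 5% FDR in a list (at most 6) or else the 2 with the smallest p, and the 5 most like Fkbp5. Mt1 and Slco1a4 were matched through synonyms, and Hlf and Tac2 had no match. No pair of libraries of the same treatment was a duplicate: between rats of 1 treatment the variance was 17.5 to 215 times that of Poisson counts. Pairs across the treatments were not examined. Nothing states separate litters or batches, so p-values measure only the spread between these rats. Correlations between rats were planned as a description, and their permutation p-values were added later. Figures were drawn with matplotlib 3.10.9.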

Additional observations from a re-analysis of the deposited data

Results flagged for a closer look

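Control rat 10 stood apart from the other Control rats in 2 of 20 groups of 6 examined, by Dixon's criterion for the gap between an extreme value and its neighbor over the whole range. Chance alone passes its 95% limit in about 1 in 20 groups. *Hsd11b1* was at 27.5 CPM in Control rat 10, with 19.9 CPM in the next rat and 16.3 CPM in the lowest, a ratio of 0.679. *Errfi1* was at 28.8 CPM in Control rat 10, with 23.95 CPM in the next rat and 21.2 CPM in the lowest, a ratio of 0.643. The same rat had the highest striatal and cortical marker sums of the Control group, 3532 and 284 CPM, and the part of these in both values was not tested.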

How the results depend on the processing

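Genes past 5% FDR among all genes numbered 76 (28.9% of them higher), against 286 in DESeq2 (40.9% higher), 234 in limma-voom (34.6%) and 26 with the myelin marker score as covariate (76.9%). When 1 rat was left out, the lowest number was 34 without Control rat 9 (23.5% higher). The highest was 154 without CIE rat 6 (15.6% higher, the smallest share of these fits). The largest share of these fits was 37.9%, without CIE rat 3. Of the 10 genes, 3 were past 5% FDR, 4 in DESeq2, 5 in limma-voom, and 1 to 3 without 1 rat, the lowest without Control rat 9. Of the 26 other glucocorticoid-induced genes, 5 were past it, 13 in DESeq2, 13 in limma-voom, and 4 to 8 without 1 rat, the highest without CIE rat 3. After the data were seen, CIE rat 2 and Control rat 10 were left out together, giving 38 genes, and CIE rats 1, 2 and 4 with Control rat 10, giving 15 genes, 0 of the 10 and 2 of the 26. The cause of these differences was not tested. The median r of the 45 pairs was 0.18, and 0.0558 with library size only. The log2 fold change crossed 0 for *Hsd11b1* (-0.17 to 0.13) and *Nr3c2* (-0.08 to 0.19) over the 8 alternatives that kept all rats. No paired analysis was possible because the groups share no rat number. *Sult1a1*, *Cdkn1a* and *Gpd1* were each past 5% FDR in 7 of the 8. The first 2 were not with the myelin score, and *Gpd1* was not with the cortical and striatal scores. These counts are a description, since *Sult1a1* was known to differ beforehand and the list was written with earlier results known. Low counts limit *Hsd11b2*.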
